A study of Mus musculus with 8 samples.

Results

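Cells recognise double-stranded RNA as a sign of viral infection, and a set of enzymes keeps the cell's own RNA and DNA from being recognised in the same way. The 10 genes described here belong to that system. They include the sensors Ddx58 (RIG-I), Ifih1 (MDA5) and Dhx58 (LGP2), the adaptor Mavs and the kinase Eif2ak2 (PKR). The others are the RNA-editing deaminases Adar and Adarb1 and the nucleic acid removal genes Trex1, Samhd1 and Rnaseh2a. The genes were taken by symbol and matched to Ensembl gene identifiers among the 55401 rows of a gene count table. All 10 were found, and all 10 passed the filter on low counts that left 17470 tested genes.

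RIG-I and MDA5 are helicases that bind double-stranded RNA in the cytosol and pass the signal to MAVS on the mitochondrial surface, which leads to type I interferon. Interferon then raises the transcription of many of the sensors themselves. PKR binds the same kind of RNA and phosphorylates the translation factor eIF2 alpha, while ADAR converts adenosine to inosine in double-stranded RNA and so makes the cell's own duplexes less visible to MDA5 and PKR. Methylation of adenosine at the N6 position (m6A), which is written by METTL3, is another mark by which the cell's own RNA can differ from foreign RNA.

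The RNA came from macrophages that were grown from mouse bone marrow (BMDM). Each macrophage culture came from mice with 2 floxed Mettl3 alleles (Mettl3fl/fl), and this allele is shared by all groups. The group called KO here also carried Lyz2-Cre, in which the Lyz2 promoter drives Cre recombinase in myeloid cells, and the group called WT did not, so an effect of Cre and an effect of Mettl3 loss cannot be told apart. PBS was the control treatment in both genotypes. Stimulation was LPS, a bacterial activator of the receptor TLR4, at 50 ng/ml overnight, followed by nigericin, a potassium ionophore that triggers the NLRP3 inflammasome, at 10 µM for 3 h, the time on each sample's own label. Each of the 4 groups had 2 libraries, 8 in all. The labels do not say whether both libraries of a group stem from different cultures or mice, so each p-value reflects only library-to-library spread, which may be technical. Every stimulated library had received both LPS and nigericin, so their effects cannot be told apart. The series text gives the nigericin time as 1 h or 3 h, and no label here names 1 h.

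The promoters of the members were searched for the letters of elements that interferon-activated factors are known to bind, and 5 are printed as examples. RefSeq (GRCm38.p6) held 12 promoters for 9 of the 10 members, and none for Dhx58, which was therefore not searched. Each promoter had 300 bases, from 250 before the start of transcription to 50 after it. Both strands were searched for GAAA followed by any 2 bases and GAAA again, the core of the interferon-stimulated response element (ISRE), for TTCNNNGAA, the gamma-activated site (GAS), and for AAACGAAA, which was added after the members' promoters had been seen. Among 32544 distinct promoters of the same length, the ISRE core was present in 3.45%, the GAS letters in 8.33% and AAACGAAA in 0.553%. Because AAACGAAA was chosen from the members' own promoters, its matches among them are no test of it. Capitals mark the matches in the sequences of Ddx58 (chr4:40239776-40240075, minus strand), Ifih1 (chr2:62646206-62646505, minus strand), Eif2ak2 (chr17:78882523-78882822, minus strand), the third Adar promoter (chr3:89730468-89730767, plus strand) and Mavs (chr2:131233813-131234112, plus strand), which has no match and is shown for contrast.
Ddx58: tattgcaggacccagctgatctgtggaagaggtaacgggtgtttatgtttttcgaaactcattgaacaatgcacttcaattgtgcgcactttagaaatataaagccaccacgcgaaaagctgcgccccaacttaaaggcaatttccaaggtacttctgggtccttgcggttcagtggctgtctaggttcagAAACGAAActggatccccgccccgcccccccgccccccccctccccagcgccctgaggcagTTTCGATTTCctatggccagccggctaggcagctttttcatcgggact
Ifih1: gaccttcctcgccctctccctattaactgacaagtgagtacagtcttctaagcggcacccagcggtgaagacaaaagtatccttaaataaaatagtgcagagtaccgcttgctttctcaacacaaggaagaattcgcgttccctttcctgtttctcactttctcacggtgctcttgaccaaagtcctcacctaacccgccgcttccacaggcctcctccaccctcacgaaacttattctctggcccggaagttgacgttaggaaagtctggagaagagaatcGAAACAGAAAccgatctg
Eif2ak2: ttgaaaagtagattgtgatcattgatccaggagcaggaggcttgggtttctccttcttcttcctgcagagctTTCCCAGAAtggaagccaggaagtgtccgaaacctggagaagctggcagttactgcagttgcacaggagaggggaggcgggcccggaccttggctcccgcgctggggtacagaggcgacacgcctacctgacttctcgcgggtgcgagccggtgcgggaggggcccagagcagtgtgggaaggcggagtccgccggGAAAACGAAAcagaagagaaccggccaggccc
Adar: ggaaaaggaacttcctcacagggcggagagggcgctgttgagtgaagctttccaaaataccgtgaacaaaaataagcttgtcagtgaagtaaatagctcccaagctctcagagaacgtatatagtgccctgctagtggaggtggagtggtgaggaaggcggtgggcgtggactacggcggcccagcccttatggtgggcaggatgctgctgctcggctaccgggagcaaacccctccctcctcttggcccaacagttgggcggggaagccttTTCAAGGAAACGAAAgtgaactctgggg
Mavs: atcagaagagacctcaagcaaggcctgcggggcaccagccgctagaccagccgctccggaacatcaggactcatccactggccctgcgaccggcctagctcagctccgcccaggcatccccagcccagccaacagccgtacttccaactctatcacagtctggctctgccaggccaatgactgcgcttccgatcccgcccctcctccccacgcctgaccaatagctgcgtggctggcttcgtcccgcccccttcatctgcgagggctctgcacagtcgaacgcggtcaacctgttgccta
The Ddx58 sequence held the ISRE core on the opposite strand from position 3 after the start and AAACGAAA from position -59. In Ifih1 the ISRE core began at position 33. In Eif2ak2 the ISRE core began at position 19 and overlapped AAACGAAA, and a GAS match began at position -178. The third Adar promoter held a GAS match from position 23 that overlapped AAACGAAA, and the other 2 Adar promoters held none of the 3 motifs. GAS matches were also found in the promoters of Samhd1, from position -235, and Rnaseh2a, from position 17, which are not printed. Adarb1 and Mavs, with 1 promoter each, and both promoters of Trex1 held no match. Trex1, the member that rose most on stimulation, thus held none, while Rnaseh2a, which was not called, held a GAS match. A link between the matches and the changes on stimulation was not tested. A match describes letters in this window and is not a measured binding site.

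Total counts were between 55032057 and 65487739 per library. Mettl3 was 13.6 and 13.3 CPM (reads of the gene per total reads, with TMM scaling) in the WT PBS libraries and 5.63 and 6.33 in KO, and after stimulation 28.2 and 23.4 against 9.08 and 7.87. On the log2 scale KO differed from WT by -1.17 ± 0.14 with PBS (SE, n = 2 per group, adjusted p = 0.0143), and stimulated KO by -1.61 ± 0.14 (adjusted p = 0.00283). The counts cover the whole gene, so the floxed exons were not checked on their own. Of 8 macrophage markers none was at 0, but their summed level was 42180 to 45190 CPM in WT PBS against 26660 to 27700 in KO PBS, and 45610 to 48290 in stimulated WT against 26870 to 28050 in stimulated KO. Lyz2, the gene whose promoter drives Cre, was 32740 and 35400 CPM in WT PBS, 16780 and 17510 in KO PBS, 32220 and 34420 in stimulated WT, and 15400 and 14740 in stimulated KO. Without Lyz2, the other 7 markers summed to 9438 and 9788 CPM in WT PBS against 9881 and 10190 in KO PBS, slightly higher in KO, and to 13390 and 13860 against 12650 and 12130 after stimulation, slightly lower in KO. The summed level of 6 fibroblast and stromal markers was 163 to 183 CPM in WT PBS, 255 to 272 in KO PBS, 114 to 116 in stimulated WT and 293 to 328 in stimulated KO, so it moved with genotype. The 6 B and plasma cell markers were 1.26 to 1.58 CPM in WT PBS and 3.57 to 3.64 in KO PBS, and 0.50 to 0.65 against 3.73 to 3.97 after stimulation. The 6 dendritic cell markers were 1.01 to 1.35 CPM over the PBS libraries, 1.24 in both stimulated WT libraries and 2.66 to 3.79 in stimulated KO. Malat1 and Neat1, nuclear transcripts taken as a sign of RNA quality, summed to 711 to 899.9 CPM in WT PBS, 543 to 647 in KO PBS, 396 and 809.7 in stimulated WT and 456 to 473 in stimulated KO, so the 2 stimulated WT libraries stood apart from each other. The 8 neutrophil markers summed to 3.90 to 5.90 CPM over the PBS libraries and to 28.1 to 35.4 over the stimulated ones, nearly all of it S100a8, with Ly6g and Retnlg at 0 in every library. The part of these markers in the members' results was not tested. In bulk RNA, fewer cells of a type and less RNA per cell cannot be told apart.

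Genes were called where the adjusted p of edgeR's quasi-likelihood test, adjusted by Benjamini-Hochberg over all tested genes, was under 0.05. Stimulation raised 8 of the 10 genes in WT macrophages and 7 of the 10 in KO macrophages, and lowered none. Trex1, the cytosolic DNA exonuclease, rose 21.9-fold in WT and 26.0-fold in KO, followed by the sensors Ddx58 and Dhx58. Mavs, Adarb1 and Rnaseh2a stayed within 0.4 log2 units of their PBS level in both genotypes. In the same fit, 40.5% of the 17470 tested genes were called in WT (20.6% higher, 20% lower) and 39.1% in KO (20.2% higher, 19% lower). The median log2 change of the 10 members was 1.59 in WT, against -0.01 over all tested genes, and 1.55 in KO, against -0.03. No member was called between KO and WT under either treatment.

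**Figure D1:**
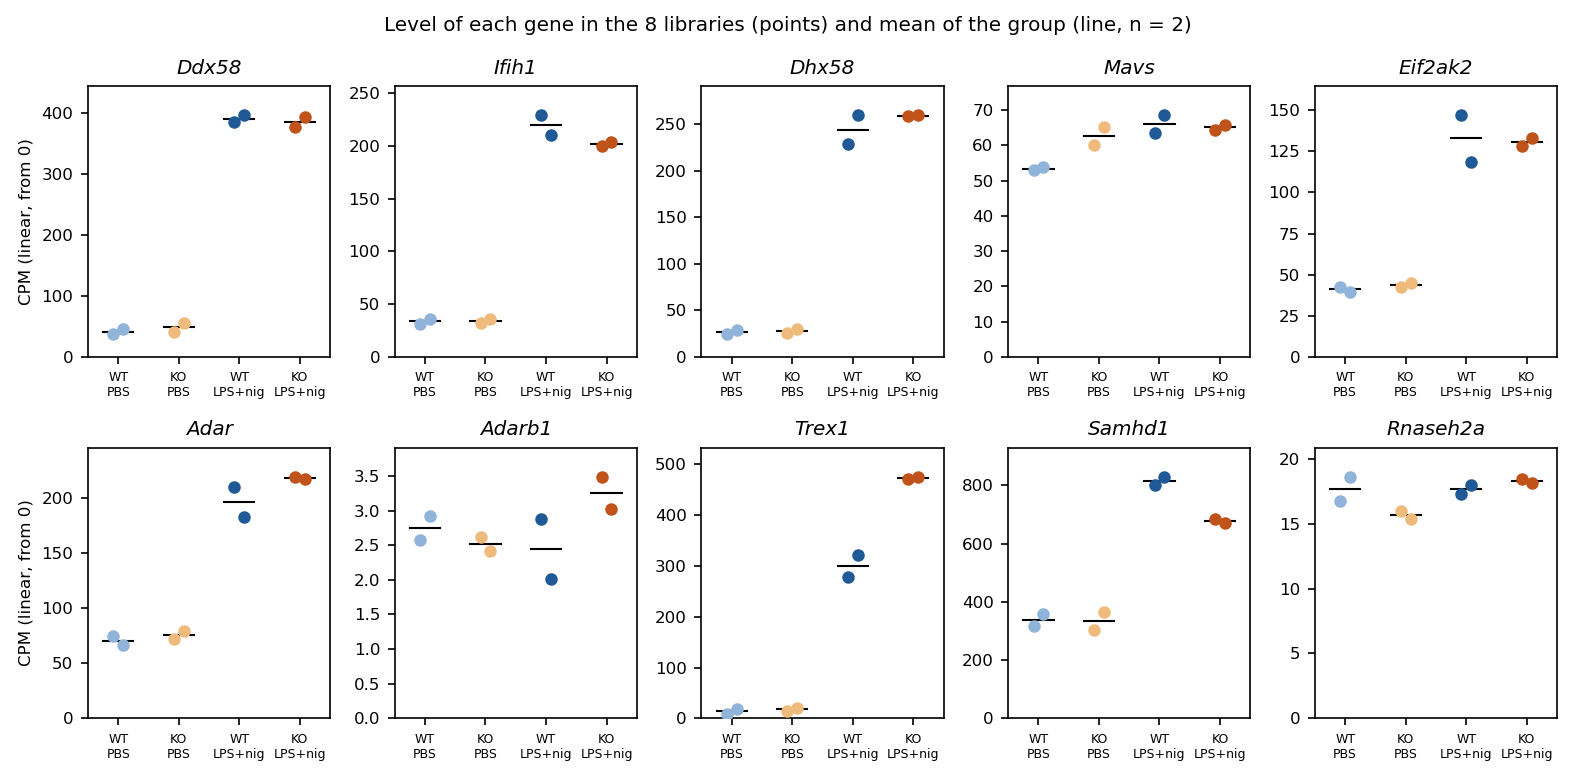
Level of each gene in CPM (linear axes from 0, a separate scale for each gene) in the 8 libraries, with points for libraries and a line for the mean of the 2 libraries of a group. The stimulated libraries lie far above the PBS libraries for Ddx58, Ifih1, Dhx58, Eif2ak2, Adar, Trex1 and Samhd1, while Mavs, Adarb1 and Rnaseh2a change little.

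Ddx58 (ENSMUSG00000040296, GRCm38 chromosome 4, 40203773 to 40239828, minus strand) encodes RIG-I, which binds short RNA duplexes with a triphosphate end. Its level was 37.2 and 45.5 CPM in WT PBS, 41.3 and 54.9 in KO PBS, 385 and 397 in stimulated WT, and 376 and 393 in stimulated KO. All 4 stimulated libraries were far above all 4 PBS libraries, and the genotypes overlapped under both treatments. Stimulation changed it by a log2 value of 3.24 ± 0.16 in WT (SE, n = 2 per group, adjusted p = 1.05e-05), or 9.45-fold. In KO the log2 change was 3.00 ± 0.16 (adjusted p = 1.43e-05). The log2 difference of KO from WT was 0.22 with PBS (95% interval -0.13 to 0.57) and -0.02 after stimulation (-0.37 to 0.33).

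Ifih1 (ENSMUSG00000026896, chromosome 2, 62595798 to 62646255, minus strand) encodes MDA5, which binds long RNA duplexes and is the sensor most closely tied to unedited RNA of the cell itself. The PBS libraries held 31.6 and 35.7 CPM in WT and 31.7 and 36.1 in KO, and the stimulated libraries 229 and 211 in WT and 200.1 and 204 in KO. With PBS the genotypes overlapped. After stimulation both KO libraries were below both WT libraries, but the log2 difference of -0.12 ± 0.10 was not called (adjusted p = 0.555, 95% interval -0.35 to 0.11). The rise on stimulation was 2.71 ± 0.10 in WT (adjusted p = 3.72e-06) and 2.58 ± 0.10 in KO (adjusted p = 4.58e-06) on the log2 scale.

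Dhx58 (ENSMUSG00000017830, chromosome 11, 100694884 to 100704271, minus strand) encodes LGP2, a helicase without the signalling domains of the other two, which modulates them. Its level was 24.3 and 28.4 CPM in WT PBS, 25.4 and 29.9 in KO PBS, 229 and 259.4 in stimulated WT, and 258.7 and 259.9 in stimulated KO. The genotypes overlapped under both treatments. It rose by 3.21 ± 0.13 in WT (adjusted p = 4.11e-06) and by 3.23 ± 0.13 in KO (adjusted p = 4.13e-06) on the log2 scale, and the difference of these responses was 0.02 (95% interval -0.37 to 0.41). An antisense gene, Dhx58os, overlaps 4.31% of its exons and had 171 counts over all 8 libraries against 65880 for Dhx58. The sources used here do not state whether strand was used in counting.

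Mavs (ENSMUSG00000037523, chromosome 2, 131234063 to 131248025, plus strand), the adaptor that RIG-I and MDA5 share, changed far less than the sensors. Its level was 53.0 and 53.8 CPM in WT PBS, 60.0 and 65.1 in KO PBS, 63.6 and 68.6 in stimulated WT, and 64.4 and 65.8 in stimulated KO. The WT PBS libraries were the lowest of the 8, and the other 3 groups overlapped one another. In WT it was called higher after stimulation, with a log2 change of 0.31 ± 0.08 (adjusted p = 0.0177), or 1.24-fold. In KO the change was 0.06 ± 0.08 (adjusted p = 0.604, 95% interval -0.13 to 0.24). The difference between these responses, tested directly, was -0.25 ± 0.11 and was not called (adjusted p = 0.483, 95% interval -0.51 to 0.01). With PBS the KO level was 0.23 ± 0.08 above WT on the log2 scale, which was not called (adjusted p = 0.227). The WT call was small enough to be lost with scaling by library size alone (0.12, adjusted p = 0.198) and in 3 of the 8 fits that each left out 1 library, namely without either WT PBS library and without the second stimulated WT library (adjusted p = 0.0195 to 0.0919 over the 8).

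Eif2ak2 (ENSMUSG00000024079, chromosome 17, 78852564 to 78882573, minus strand) encodes PKR, which stops translation by phosphorylating eIF2 alpha. It stood at 42.7 and 39.4 CPM in WT PBS, 42.6 and 45.0 in KO PBS, 147 and 119 in stimulated WT, and 128 and 133 in stimulated KO. Stimulated libraries were all above PBS libraries, and the genotypes overlapped under both treatments. The log2 rise was 1.70 ± 0.11 in WT (adjusted p = 4.26e-05), or 3.24-fold, and 1.58 ± 0.11 in KO (adjusted p = 5.73e-05). After stimulation the KO level differed from WT by -0.02 on the log2 scale (95% interval -0.29 to 0.24).

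Adar (ENSMUSG00000027951, chromosome 3, 89715022 to 89753446, plus strand) encodes the main adenosine deaminase of double-stranded RNA. It makes a constitutive and an interferon-inducible isoform, which gene counts do not separate. Its level was 75.0 and 66.1 CPM in WT PBS, 72.3 and 79.0 in KO PBS, 210.2 and 183 in stimulated WT, and 219.5 and 217.5 in stimulated KO. The genotypes overlapped with PBS, and after stimulation both KO libraries were above both WT libraries. The log2 rise was 1.48 ± 0.10 in WT (adjusted p = 4.58e-05) and 1.53 ± 0.10 in KO (adjusted p = 3.87e-05). After stimulation the log2 difference of KO from WT was 0.15 ± 0.10 and was not called (adjusted p = 0.457, 95% interval -0.08 to 0.39). Chrnb2 on the opposite strand overlaps 16.8% of the Adar exons, with 1408 counts over the 8 libraries against 67065 for Adar.

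Adarb1 (ENSMUSG00000020262, chromosome 10, 77290726 to 77418270, minus strand), the editing enzyme best known for recoding neuronal receptor transcripts, was the least expressed of the 10. It was 2.58 and 2.92 CPM in WT PBS, 2.62 and 2.42 in KO PBS, 2.87 and 2.01 in stimulated WT, and 3.49 and 3.03 in stimulated KO. The stimulated KO libraries were the highest, and the other 3 groups overlapped. No comparison was called: the log2 change on stimulation was -0.17 ± 0.23 in WT (adjusted p = 0.595) and 0.37 ± 0.23 in KO (adjusted p = 0.244), and KO differed from WT after stimulation by 0.42 ± 0.23 (adjusted p = 0.375, 95% interval -0.12 to 0.96). It had 117 to 199 counts per library, and these intervals leave room for a change in either direction.

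Trex1 (ENSMUSG00000049734, chromosome 9, 109057933 to 109059734, minus strand) encodes an exonuclease that degrades DNA in the cytosol, which otherwise activates cGAS. Its level was 9.35 and 18.0 CPM in WT PBS, 15.3 and 21.2 in KO PBS, 277.5 and 321 in stimulated WT, and 472 and 476 in stimulated KO. With PBS the genotypes overlapped and the 2 WT libraries lay further apart than the means of the genotypes, while after stimulation both KO libraries were above both WT libraries. On stimulation Trex1 rose by 4.45 ± 0.33 in WT (adjusted p = 6.77e-05) and by 4.70 ± 0.33 in KO (adjusted p = 5.48e-05) on the log2 scale. After stimulation its level in KO was 1.58-fold that in WT, a log2 difference of 0.66 ± 0.29 that was not called over all genes (adjusted p = 0.262, 95% interval -0.02 to 1.34). A fit of only the 4 stimulated libraries, which does not use the wide spread of the PBS libraries, gave 0.69 ± 0.08 and called it (adjusted p = 0.03), whereas DESeq2 (adjusted p = 0.0861), limma-voom (0.0797) and the fits that each left out 1 library (0.0931 to 0.51) did not. The difference between the responses of the genotypes was 0.25 ± 0.41 (95% interval -0.73 to 1.22), and -0.28 to 0.64 when each library was left out in turn. All 1147 bases of Trex1 exons also lie within exons of Atrip on the same strand, so reads there cannot be assigned to 1 gene by strand. Atrip was 16.0 to 48.6 CPM over the 8 libraries and was not called in any of the 4 comparisons of 2 groups.

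Samhd1 (ENSMUSG00000027639, chromosome 2, 157097533 to 157135265, minus strand) encodes a phosphohydrolase that depletes deoxynucleotides and restricts retroviruses in myeloid cells. It had 318 and 357 CPM in WT PBS, 303.5 and 365 in KO PBS, 799.7 and 830 in stimulated WT, and 684.5 and 672 in stimulated KO. After stimulation both KO libraries were below both WT libraries, and with PBS the genotypes overlapped. It rose by 1.27 ± 0.10 in WT (adjusted p = 9.67e-05), or 2.41-fold, and by 1.02 ± 0.10 in KO (adjusted p = 0.000269), or 2.03-fold. After stimulation the log2 difference of KO from WT was -0.27 ± 0.10, with a 95% interval of -0.50 to -0.03, and was not called over all genes (adjusted p = 0.207).

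Rnaseh2a (ENSMUSG00000052926, chromosome 8, 84956610 to 84969767, minus strand) encodes the catalytic subunit of RNase H2, which cuts RNA out of RNA-DNA hybrids. Its level was 16.8 and 18.7 CPM in WT PBS, 16.0 and 15.4 in KO PBS, 17.3 and 18.0 in stimulated WT, and 18.5 and 18.2 in stimulated KO. The KO PBS libraries were the lowest, and all 8 lay in a narrow range. In WT the log2 change on stimulation was 0.00 ± 0.10 (adjusted p = 0.983), with a 95% interval of -0.23 to 0.22, and in KO 0.22 ± 0.10 (adjusted p = 0.112). KO differed from WT by -0.175 with PBS (adjusted p = 0.449) and by 0.052 after stimulation (adjusted p = 0.839), neither of them called. Prdx2 on the opposite strand overlaps 5.04% of the Rnaseh2a exons and is more abundant, with 79724 counts over the 8 libraries against 8446 for Rnaseh2a. On stimulation Prdx2 was called higher in WT (0.87, adjusted p = 0.000121) and in KO (0.75, adjusted p = 0.000249). Its part in the Rnaseh2a counts was not tested.

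**Figure D2:**
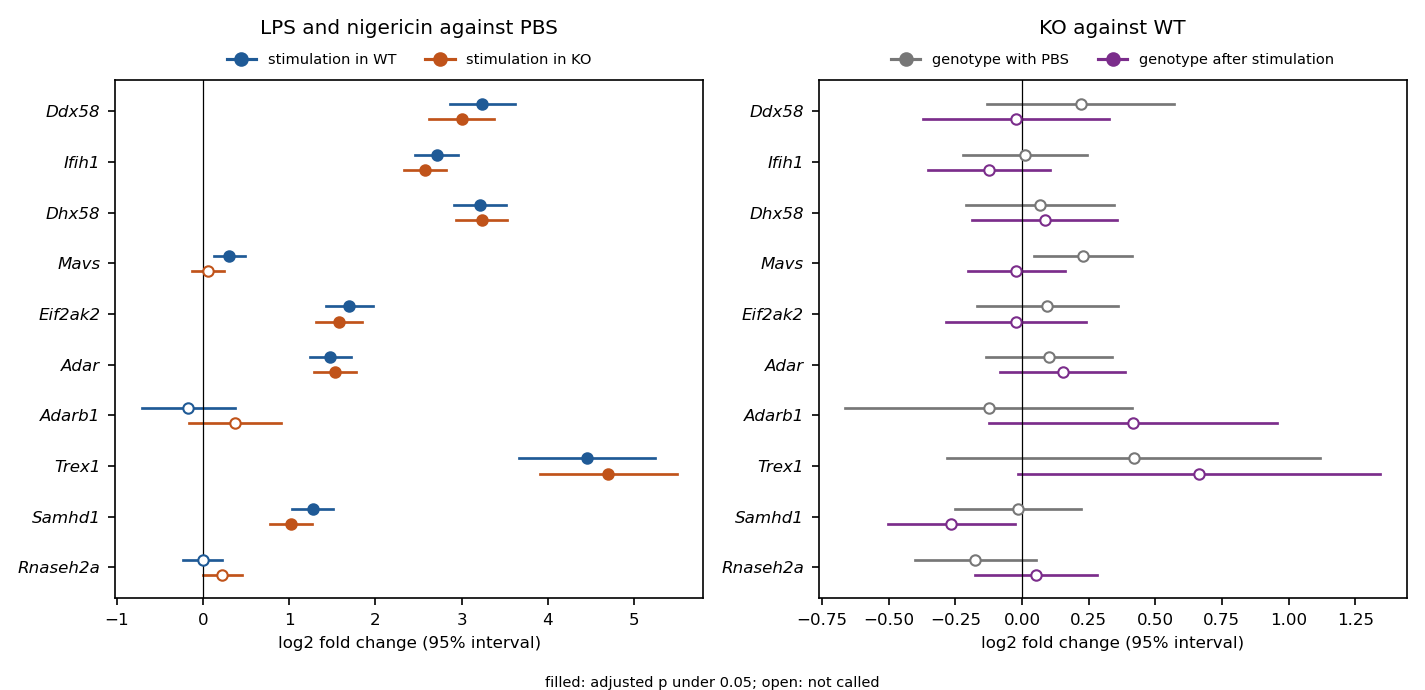
Log2 fold change of each gene (points) with its 95% interval (lines) for LPS and nigericin against PBS in WT and KO (left) and for KO against WT with PBS and after stimulation (right), on separate linear axes, with filled points where the adjusted p was under 0.05. The 8 WT and 7 KO calls are all on the left, and every point on the right is open.

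Between genotypes with PBS, edgeR called 0 of the 10 members, against 1.55% of all tested genes (1.2% higher in KO, 0.355% lower), and 1 member (Mavs) had an unadjusted p under 0.05. After stimulation it called 0 of 10, against 4.92% of all tested genes (2.91% higher, 2.01% lower), and 1 member (Samhd1) had an unadjusted p under 0.05. For the difference between the responses it called 0 of 10, against 0.498% of all tested genes (0.103% higher, 0.395% lower), with 0 under an unadjusted p of 0.05. DESeq2 and limma-voom also called 0 members in each of these 3 comparisons. With so few genes called among all tested, these counts do not set the members apart from the background. The median log2 difference of the members was 0.08 with PBS and 0.015 after stimulation, against 0 and -0.004 over all tested genes.

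Levels of different genes were compared per length, as FPKM over the union of annotated exons. In WT macrophages with PBS, Samhd1 was highest (36.9 ± 2.96 FPKM, SD, n = 2), followed by Mavs (16.0 ± 0.16), Trex1 (11.9 ± 5.31), Adar (8.69), Dhx58 (8.06), Eif2ak2 (8.02), Ddx58 (5.86), Rnaseh2a (5.05), Ifih1 (4.12) and Adarb1 (0.244). The libraries of the neighbouring pairs Trex1 and Adar, Adar and Dhx58, Dhx58 and Eif2ak2, and Ddx58 and Rnaseh2a overlapped, so their order is not separated. The same genes led and ended the order in KO PBS, from Samhd1 (36.5 FPKM) to Adarb1 (0.224).
After stimulation the order was led by Trex1 in both genotypes, with 261 ± 27 FPKM in WT and 413.5 in KO. Trex1 moved from the 79.7th to the 98.8th percentile of the tested genes in WT. In stimulated WT the next were Samhd1 (89.1), Dhx58 (74.7), Ddx58 (55.4), Ifih1 (26.95), Eif2ak2 (25.99), Adar (24.2), Mavs (19.8), Rnaseh2a (5.03) and Adarb1 (0.217), where Ifih1 and Eif2ak2, and Eif2ak2 and Adar, overlapped. In stimulated KO, Dhx58 (79.2) stood above Samhd1 (74.1), and no neighbouring pair overlapped. That order depends on the length used. Per length of the longest transcript, Samhd1 (174.4 and 171.2) stood above Dhx58 (107.3 and 107.7) in stimulated KO. The adaptor Mavs thus stood above each of the 3 sensors with PBS and below them after stimulation in both genotypes. Lengths of the longest transcript also made other neighbouring genes trade places. In KO PBS they moved Eif2ak2 from rank 5 to 7 and Ddx58 from rank 7 to 5.

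**Figure D3:**
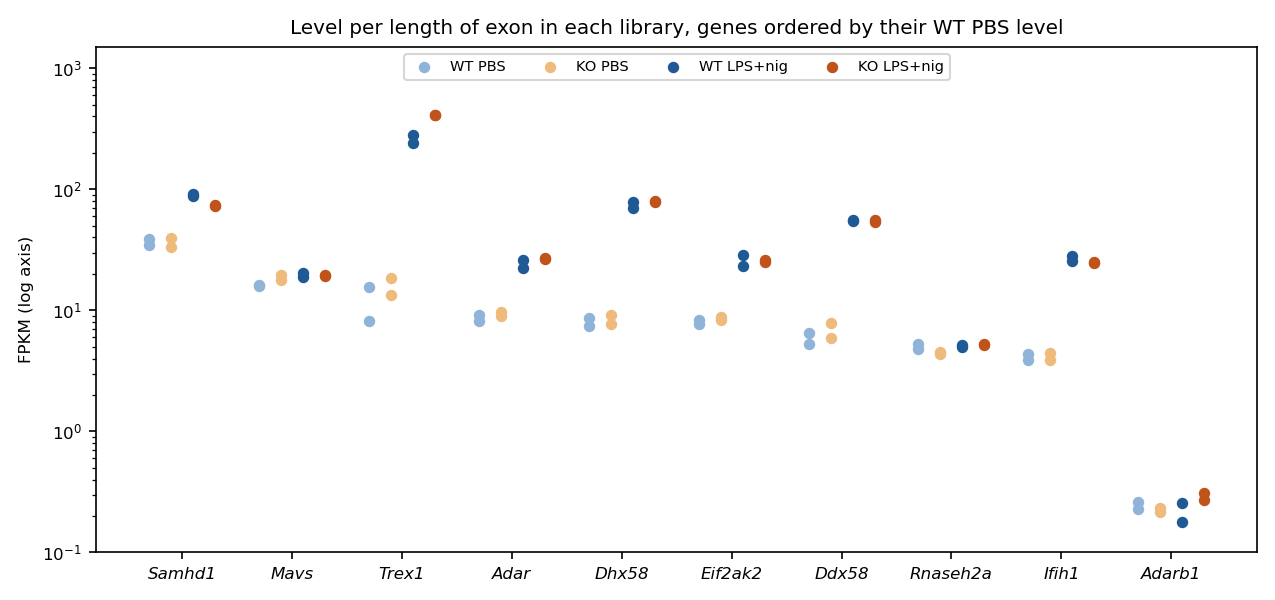
FPKM of each gene in the 8 libraries on a log axis, with genes ordered by their mean in WT PBS and 1 colour for each group. Trex1 spans the widest range between PBS and stimulated libraries, and Adarb1 stays lowest in all 4 groups.

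The pattern of each member over the 8 libraries was compared with that of 9466 other protein-coding genes, by the root mean square difference of centred log2 CPM (0 for identical patterns). Ddx58 was closest to Oas3 (0.08), Tap1 (0.09) and Oas1a (0.10), and Ifih1 to Psmb10 (0.05), Ift57 (0.09) and Parp14 (0.11). Dhx58 was closest to another member, Ddx58 (0.10), then to Igtp (0.11) and Psme2 (0.11). Eif2ak2 lay nearest to Nlrp3, Rbpj and Plekhg1 (0.09 each), and Adar to Narf (0.07), Plekhg1 (0.09) and Trim5 (0.09). For Samhd1 the nearest were Rnf114, Vdac3 and Polr2g (0.07 to 0.08). Mavs (Rps9, Pigs and Unc93b1, 0.03 to 0.05) and Rnaseh2a (Cul2 and Nup93, 0.04 to 0.05) had the closest neighbours. The measure is not scaled by the size of a gene's change, so genes that change little lie close to one another. Adarb1 was nearest to Nup35, Kdm1b and Gm10031 (0.10 to 0.11). Trex1, the member with the largest change, had no gene as close, with Calhm6, Gpr141 and Slamf6 at 0.27 to 0.28. Among the members, Eif2ak2 and Adar (0.10) and Ddx58 and Dhx58 (0.10) formed the closest pairs.

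The genes around the members were followed in 8 lists of 130 genes, of which 124 were tested. Stimulation raised 62 and lowered 15 of them in WT (62.1% called, against 40.5% of all tested genes) and raised 59 and lowered 16 in KO (60.5%, against 39.1%). Without the interferon output list, 54.8% of the remaining 104 were called in WT and 52.9% in KO. Values below are log2 changes in WT and then in KO, and each was called unless said otherwise.
All 20 interferon output genes were called higher in both genotypes, with a median log2 change of 4.81 in WT and 4.58 in KO. Among them, the chemokine Cxcl10 rose by 8.57 in WT and 8.44 in KO, Ifi44 by 6.67 and 5.79, the ubiquitin-like modifier Isg15 by 6.37 and 6.48, and Oasl1 by 5.46 and 4.69. Ifnb1 itself was at most 0.218 CPM in any library. Of 8 tested genes of type I interferon and its receptor, 5 rose in WT and 5 rose and 1 fell in KO, among them the transcription factor Stat2 (3.10 and 2.42). The fall in KO was lost without any 1 of the 4 KO libraries. The receptor chain Ifnar2 rose by 0.98 and 0.97, Irf9, the partner of Stat2, by 1.13 and 0.85, and the receptor kinase Tyk2 by 0.62 and 0.86.
Of 25 regulators of RIG-I and MDA5 and of MAVS signalling, 9 rose and 5 fell in WT, and 9 rose and 4 fell in KO. The interferon regulatory factor Irf7 rose by 5.24 and 4.34, the kinase Ikbke by 1.87 and 1.58, and the adaptors Traf2 and Tank by 1.57 and 1.46 and by 1.33 and 1.42. When each library was left out in turn, the genes called lower in this list numbered 2 to 5 in WT, fewest without the first WT PBS library (2) and the second stimulated WT library (3), and 1 to 4 in KO, with 1 or 2 left when any 1 of the 4 KO libraries was dropped. DESeq2 called 2 lower in KO, as did the fit with no filter.
In the list of 12 genes of PKR and eIF2 alpha signalling, 6 rose and 2 fell in WT, and 5 rose and 2 fell in KO. The eIF2 alpha phosphatase subunit Ppp1r15a rose by 2.50 and 2.15, its relative Ppp1r15b by 0.83 and 0.74, Ddit3 by 1.66 and 0.76, and Eif2s1, which encodes eIF2 alpha, by 0.89 and 0.86. The falls were less stable: library size alone gave 4 in WT, and 1 was left in WT in the fit of only the groups compared and without either WT PBS library or the second stimulated WT library. In KO 1 was left without the second PBS library and 0 without the second stimulated library.
Of 16 tested genes of double-stranded RNA binding, editing and processing, 4 rose in both genotypes, while 2 fell in WT and 1 fell in KO. The called shares, 37.5% in WT and 31.2% in KO, were at or below those of all tested genes (40.5 and 39.1%), and without either stimulated WT library only 1 fell in WT. In KO library size alone gave 2 falls. The Z-nucleic acid sensor Zbp1 led with 5.13 and 4.76, followed by the cytidine deaminase Apobec3 with 1.81 and 2.22 and Ilf2, a partner of double-stranded RNA-binding proteins, with 0.83 and 1.09. The RNA-editing cytidine deaminase Apobec1 fell (-0.94 and -1.46). Dicer1, which cuts double-stranded RNA into small RNAs, changed by -0.65 in WT and by -0.34 in KO, the latter not called.
Of 19 tested nucleic acid removal genes, 7 rose and 1 fell in WT, and 5 rose and 2 fell in KO. These shares, 42.1 and 36.8%, were near those of all tested genes. The exonuclease Isg20 (5.87 and 5.48), the mitochondrial RNA exonuclease Pnpt1 (1.14 and 1.07) and the nuclear exosome subunit Exosc10 (0.79 and 0.80) were among the risers, and the lysosomal DNase gene Dnase2a (-0.68 and -0.55) fell. In WT 2 genes fell without either stimulated WT library and with DESeq2, limma-voom, library size alone or the replicate block.
Cytosolic DNA sensing (10 genes) had 6 higher and 2 lower in both genotypes, with the DNA-binding Ifi204 at 2.16 and 1.94, its relative Ifi203 at 2.23 and 2.26, the inflammasome sensor Aim2 at 0.80 and 0.65, and Enpp1, whose product degrades the second messenger cGAMP, at -3.10 and -2.45. Library size alone gave 4 higher in WT and 5 in KO for this list. The higher count also fell in some fits that left out 1 library.
Endosomal nucleic acid sensing (14 genes) was mixed, with 5 higher and 3 lower in WT and 5 higher and 4 lower in KO. The adaptor Myd88 rose by 1.25 and 1.34 and the lysosomal RNase gene Rnaset2a by 2.66 and 2.89, while Tlr13, a receptor of bacterial ribosomal RNA, fell (-0.72 and -1.25), as did Tlr8 (-1.003 and -1.16). Scaling by library size alone, which puts the median of all genes at -0.20 in WT, gave 3 higher and 4 lower in this list in WT and 3 higher and 5 lower in KO. The higher count was also 3 in WT without the first PBS library, and 3 in KO without the second PBS library or either stimulated library.

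**Figure D4:**
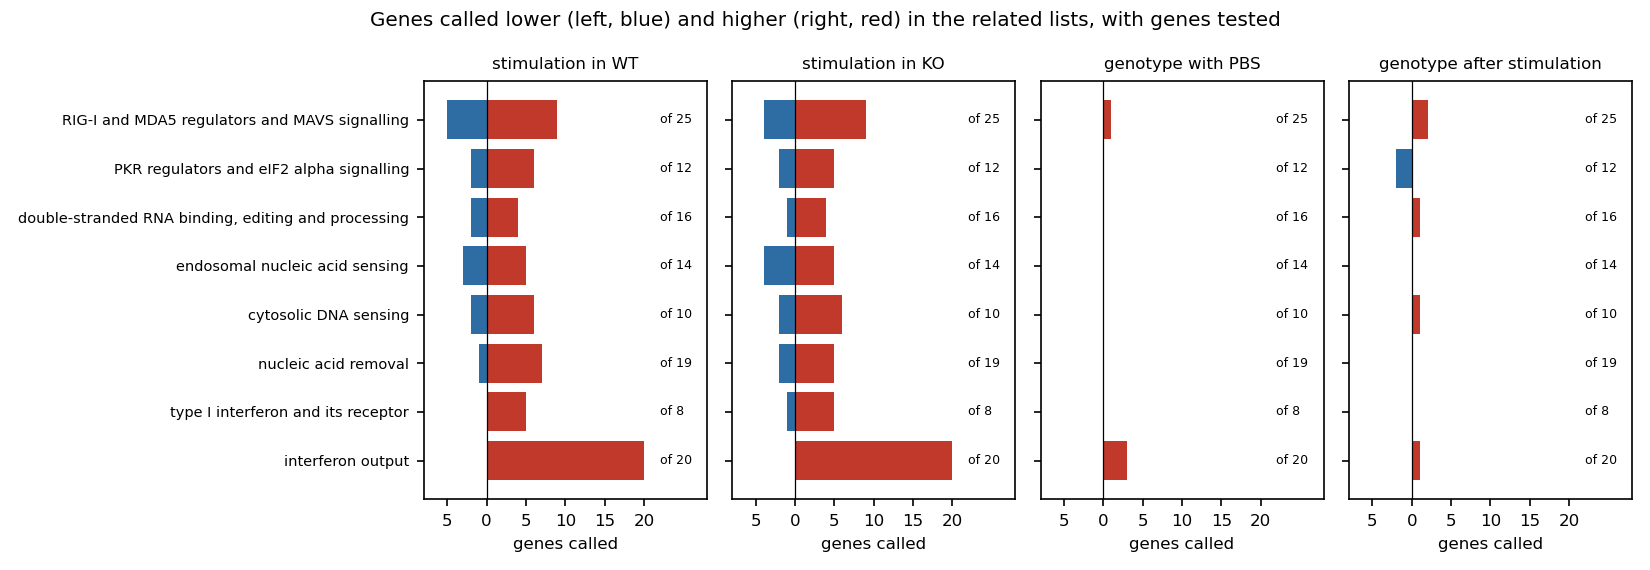
Number of genes called higher (right of 0) and lower (left of 0) in 8 lists related to the members, for 4 comparisons, with the number of genes tested beside each bar. The bars are long for stimulation in both genotypes, where all 20 interferon output genes were higher, and short for KO against WT.

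Between genotypes few of the 124 genes were called. With PBS, 4 were higher in KO and 0 lower (3.23%, against 1.55% of all tested genes). They were Irf7, at 22.9 and 27.6 CPM in WT and 42.0 and 43.8 in KO (log2 difference 0.76 ± 0.10, adjusted p = 0.0167), and the interferon output genes Ifi44 (0.99 ± 0.12, adjusted p = 0.0132), Oas2 (0.66 ± 0.10, adjusted p = 0.027) and Oasl1 (0.51 ± 0.08, adjusted p = 0.0335). The other 17 interferon output genes were not called, and the median log2 difference of that list was 0.13. For some of these 17 the KO PBS libraries lay far apart, as for Ifit2 (1.21 and 28.6 CPM). All 4 calls were lost in a fit of the 4 PBS libraries alone (adjusted p = 0.0931, 0.125, 0.0866 and 0.221), and of the 8 fits that each left out 1 library Irf7 was called in 5, Ifi44 in 4, Oas2 in 2 and Oasl1 in 0. The summed fibroblast and stromal markers and B and plasma cell markers were higher in the same KO libraries. The sum of Malat1 and Neat1 was lower there, although Neat1 alone overlapped between the genotypes. The part of all these transcripts in the calls was not tested.
After stimulation 5 of the 124 were higher in KO and 2 lower (5.65%, against 4.92%). The 2 lower genes belong to the eIF2 alpha stress response: Trib3 had 18.6 and 21.5 CPM in WT and 5.25 and 5.84 in KO (log2 difference -1.85 ± 0.28, adjusted p = 0.0162), and Ddit3, which encodes CHOP, had 71.2 and 76.0 against 40.8 and 38.7 (-0.89 ± 0.10, adjusted p = 0.00618). Both KO libraries were below both WT libraries for each gene. The 5 higher genes were Enpp1 (0.73 ± 0.11), Nlrx1 (0.67 ± 0.13), Isg15 (0.66 ± 0.12), Tradd (0.59 ± 0.11) and Apobec3 (0.49 ± 0.09), with adjusted p between 0.0179 and 0.0364. Isg15 was the only 1 of the 20 interferon output genes to be called. The median log2 difference of that list was -0.18, so the list as a whole was not higher in stimulated KO. Of the 8 fits that each left out 1 library, Ddit3 was called in 6, Enpp1 in 5, Trib3, Isg15 and Nlrx1 in 4 each, Tradd in 2 and Apobec3 in 1. In a fit of the 4 stimulated libraries alone, the calls of Enpp1 (adjusted p = 0.088), Tradd (0.0592) and Apobec3 (0.05) were lost. The fibroblast and stromal, B and plasma cell and dendritic markers were higher in the same KO libraries, and the nuclear transcripts differed between the stimulated WT libraries, as given above. Their part in these calls was not tested. Eif2ak2 and the other members, as given above, had no call in either comparison.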

How the data were processed

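RNA of macrophages from 4 groups, 2 libraries each, was measured by RNA-seq. The authors deposited 1 table of raw read counts per Ensembl gene, used as deposited. Trimmomatic, Bowtie2 and edgeR were used with mouse genome mm10, per the submitters' processing notes. The counting tool, its annotation and its strand setting: not given in the sources used here. Symbols and exon lengths came from GENCODE M21 (GRCm38), with 55141 of 55401 rows matched.

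The filter was filterByExpr of edgeR, with a minimum count of 10 and a minimum total of 15, and 17470 genes passed. Counts were scaled by TMM, and 1 quasi-likelihood model over all 8 libraries (edgeR 4.0.16, R 4.3.3, 4 residual degrees of freedom, common biological coefficient of variation 0.215) was tested in 5 contrasts: stimulation in WT, stimulation in KO, KO against WT with PBS, KO against WT after stimulation, and the difference between the 2 responses. P-values were adjusted by Benjamini-Hochberg over all tested genes, and genes under 0.05 were called. Log2 changes are given with SE and 95% intervals from the model. CPM and FPKM were computed from the counts with TMM factors. Total counts were 55032057 to 65487739 per library. The test of stimulation in WT was checked on simulated counts, and the other 4 contrasts were not checked in this way.

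The members and lists were chosen with earlier results of these data known. Named were all members, up to 4 called genes with the smallest adjusted p of each list in a contrast, and the 3 genes nearest to each member. Some genes that this rule names are not reported here. A listed gene named in 1 contrast is also given in the matching contrast of the other genotype. Where the text adds an overlapping gene or a marker by name, it was chosen because a member's value touches it. Alternatives were DESeq2 size factors, library size alone, no filter, DESeq2 1.42.0, limma-voom (limma 3.58.1), only the groups compared, the replicate number as a block, each library left out in turn and, for FPKM, the longest transcript. Promoters came from RefSeq (GRCm38.p6). Figures used matplotlib 3.10.9.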

Additional observations from a re-analysis of the deposited data

Results flagged for a closer look

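Among the listed genes and members, 1 gene differed in its response to stimulation between the genotypes by the test of that difference in the reported model. Oasl1, an interferon-induced relative of the oligoadenylate synthetases, rose by 5.46 in WT and by 4.69 in KO on the log2 scale, a difference of -0.77 ± 0.11 (SE, n = 2 per group, adjusted p = 0.0466). Its level was 4.54 and 4.96 CPM in WT PBS, 6.50 and 7.02 in KO PBS, 212 and 205 in stimulated WT, and 176 and 173.5 in stimulated KO. The KO libraries were above WT with PBS and below WT after stimulation. In the reported model it was the only call among the 124 listed genes tested and the 10 members in this comparison (0.806% of the listed genes, against 0.498% of all tested genes). DESeq2 called it as well (adjusted p = 0.00106), but as 1 of 7 listed genes that DESeq2 called in this comparison. The call was lost in all 8 fits that each left out 1 library (adjusted p = 0.0834 to 0.208), with DESeq2 size factors (0.0513), library size alone (0.074), limma-voom (0.0865) and no filter (0.0576), and with the replicate number as a block (0.0762).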

How the results depend on the processing

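No called result reversed under an alternative. The members called numbered 7 to 8 in WT and 7 in KO when each library was left out (a lone library is then assumed to vary like the other groups), and 0 in the other 3 comparisons. Fitting only the groups compared called 1 member after stimulation (Trex1). Counts over all tested genes moved more. DESeq2 called 739 genes between genotypes with PBS (271 in the reported model), 1483 after stimulation (860) and 417 for the difference of responses (87), and only the groups compared gave 45 with PBS and 503 after stimulation. Leaving out 1 library gave 5268 to 6711 genes for stimulation in WT, 4961 to 7011 in KO, 80 to 260 for genotype with PBS, 156 to 594 after stimulation and 20 to 99 for the difference, with the lowest genotype counts without the second KO PBS library and without the first stimulated KO library. Library size alone moved the median of all genes to -0.20 for stimulation in WT and 0.13 for genotype after stimulation, and the share of higher genes among those called from 50.7 to 36.5% and from 59.1 to 81.6%. The same replicate numbers occur in all groups, but deviations of same-numbered libraries correlated at only -0.02 to 0.10 across genes, so the numbers were not taken as pairs. The replicate block gave 6866, 6656, 229, 672 and 60 called genes in the 5 comparisons, with the calls of Oas2 (adjusted p = 0.0541) and Oasl1 (0.0557) with PBS lost. Lengths of the longest transcript moved 37 of 40 FPKM values by more than the spread of their libraries. With 2 libraries a group and 4 residual degrees of freedom, small changes such as those of Mavs and low counts such as those of Adarb1 limit what can be detected.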
